A study of Homo sapiens and Mus musculus with 54 samples.

Results

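Sites bound by the aryl hydrocarbon receptor (AhR) in mouse liver are described here where they lie on chromatin marked by acetylation of histone H3 at lysine 27 (H3K27ac) in mouse hepatocytes. The sites were chosen by position. Every peak of the deposited mouse liver AhR list that shared at least 1 bp with a region of the deposited hepatocyte H3K27ac list was taken, which gave 17282 of 41678 AhR peaks. They are called marked AhR peaks below, and the other 24396 are called unmarked, in the sense of this H3K27ac list alone. Because the overlap chose them, their share of the list (41.5%) is a description and was not tested.

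The AhR ChIP-seq libraries came from whole liver at 4 weeks, 3 from control and 3 from vitamin B2-deficient mice, with 6 inputs. The H3K27ac libraries came from hepatocytes with floxed AhR, also at 4 weeks. They comprised 3 libraries for each of 4 groups, which were control with Ad-Cont, B2-deficient with Ad-Cont, control with Ad-Cre and B2-deficient with Ad-Cre. All 4 hepatocyte groups thus carry the floxed allele. The sources used here give neither strain, sex and age nor how far Ad-Cre removed AhR, and they do not say whether libraries of a group came from separate animals or cultures. Each list gives positions for a whole experiment, with no value for a library, so no effect of B2 supply or of Cre could be measured and sequencing depth is unknown. Whole liver holds cell types other than hepatocytes, and the marker genes of these could not be placed, since no mouse gene table or mouse genome was used here. For the same reason the sites below carry mm10 positions but no gene names, annotations or sequences.

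AhR is a ligand-activated transcription factor of the bHLH-PAS family. It pairs with ARNT in the nucleus, binds DNA at xenobiotic response elements, and is best known in liver for inducing CYP1 enzymes. H3K27ac is laid down by the acetyltransferases p300 and CBP on nucleosomes at active enhancers and promoters. An AhR peak that overlaps an H3K27ac region is here a position shared by the liver AhR list and the hepatocyte H3K27ac list. The lists come from separate material and hold no value for a library. Whether AhR-bound chromatin carried the mark in the same cells or condition was not tested.

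The first question was where within the acetylated regions AhR lay. Marked AhR peaks sat near the middle of the regions. The median distance between the centre of an AhR peak and the centre of the nearest region it overlapped was 36 bp (95% interval of the median 35.5 to 37 bp), with the middle 50% of peaks between 16.5 and 72 bp. The 2 centres were within 50 bp of each other for 62.4% of marked peaks and within 200 bp for 96.0%. The AhR centre itself fell inside the region in 94.7% of cases. The overlapped regions had a median width of 282 bp and the AhR peaks one of 251 bp, which limits how far apart overlapping centres can lie.

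**Figure D1:**
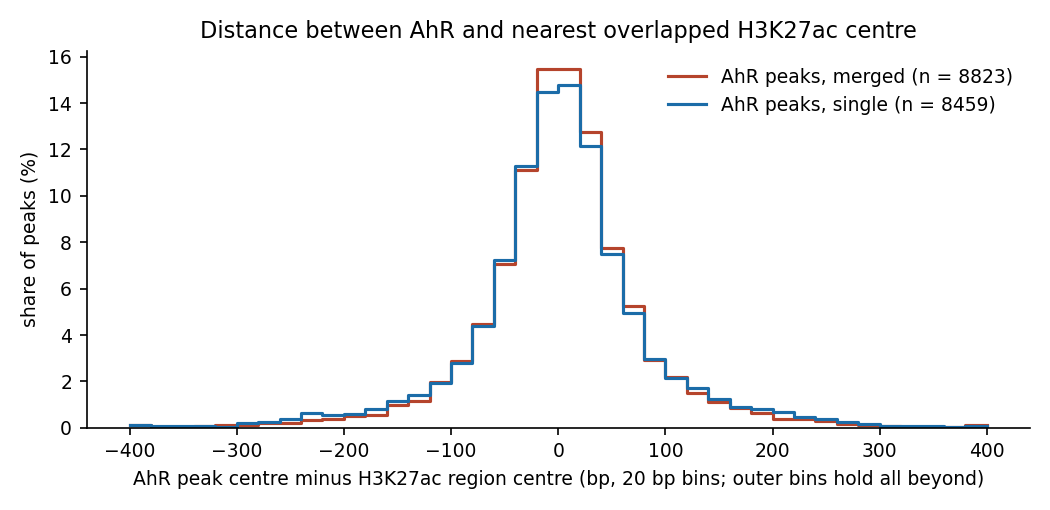
Signed distance in bp from the H3K27ac region centre to the AhR peak centre (x axis, 20 bp bins, outer bins hold all values beyond) against the share of marked AhR peaks (y axis, %), for 8823 merged and 8459 single AhR peaks. Both curves are highest at 0 and fall off alike on either side.

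Most marked peaks were covered nearly whole by the acetylated region. The median peak had 92.2% of its length covered, and 16410 of the 17282 peaks had at least 50% covered. In 31.3% of cases the AhR peak lay wholly inside the region, in 61.8% it crossed a region end, and in 6.94% the whole region lay inside the AhR peak. The membership of most peaks therefore did not rest on a few shared bases.

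A few peaks stood at the edge of the rule. The 3 peaks that shared only 1 bp lay on chromosome 10 at 77509970 to 77510247, on chromosome 13 at 47223884 to 47224154 and on chromosome 2 at 75731179 to 75731433. Just outside it, 5 AhR peaks touched a region without sharing a base, among them 1 on chromosome 11 at 111970934 to 111971176. In all, 96 marked peaks shared 1 to 20 bp, and 102 unmarked peaks lay 0 to 19 bp from a region.

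Deposited peak names end in a whole number, taken here to count the peaks joined into that entry and called the merge number. Peaks with a merge number of 2 or more are called merged, and no source used here says which peak sets were joined. Of the marked AhR peaks, 51.1% were merged (95% Wilson interval 50.3 to 51.8) against 39.4% of unmarked ones. The difference held in each class of peak width compared, from 16.5% against 10.9% in the narrowest class to 66.4% against 54.6% in the widest. Among marked peaks the merged share rose with the overlap. Peaks that shared 1 to 50 bp were merged in 33.8% of cases (95% Wilson interval 28.0 to 40.0), and those that shared more than 250 bp in 67.7%. Only wide peaks can share more than 250 bp, and the part of width in this gradient was not tested. The 39.4% of unmarked peaks as a whole lay within the interval of the marked peaks with the smallest overlaps. Just outside a region the share was 30.4% at a gap of 0 to 19 bp, 32.1% at 20 to 49 bp and 38.6% at 50 to 99 bp, with overlapping intervals. Unmarked peaks less than 2000 bp from a region were merged in 35.6% of cases, and those from 2000 to 2750 bp in 40.1%.

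The acetylated regions under AhR differed from the rest of their list in the same way. A region with an AhR peak was merged in 86.9% of 17450 cases, and a region without one in 74.0% of 52165 cases, with the first share higher on 20 of 20 chromosomes. An AhR peak lay in 14.5% of single regions, in 28.0% of regions with a merge number of 2, in 32.8% with 3 and in 46.2% with 4 (95% Wilson interval 39.6 to 52.9). Region width went the same way, from 17.2% in the narrowest 10% of regions (88 to 228 bp) to 29.4% in the widest 10% (406 to 1641 bp). Merged AhR peaks lay on at least 1 merged region in 89.6% of cases and single AhR peaks in 85.5%, so both merge numbers were 2 or more for 7908 marked peaks, 45.8% of them. Wide regions offer more bases to overlap, and the part of width in these shares was not tested.

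Marked AhR peaks then were read for what lay around them. A further H3K27ac region had its centre within 2 kb of 62.5% of marked peaks, on 1 side in 41.8% and on both sides in 20.6%. Seen from the regions, 63.1% of those with an AhR peak had another region within 2 kb, against 54.6% of those without AhR, higher on 20 of 20 chromosomes. When regions with centres within 10 kb of their neighbour were joined, AhR lay in 17.7% of regions that stood alone, in 22.5% of those in groups of 2 to 4, in 28.4% in groups of 5 to 9 and in 32.7% in groups of 10 to 19. In groups of 20 or more the share was 32.8%, within the counting interval of the groups of 10 to 19. AhR thus lay in a larger share of regions where these were dense, and 13.7% of marked peaks lay on a region that stood alone.

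AhR peaks close to each other tended to be both marked or both unmarked. When the next AhR peak along the chromosome was within 500 bp of a marked peak, it was marked as well in 78.6% of 828 cases (95% Wilson interval 75.7 to 81.3). After an unmarked peak at the same distance, it was marked in 12.5% of 1354 cases (95% Wilson interval 10.8 to 14.3). A shared region accounts by construction for some of these pairs, since 168 of the 651 marked neighbours within 500 bp overlapped the same region. The contrast shrank up to 10 kb, with shares of 58.2% and 36.1% from 2 to 5 kb and of 52.6% and 43.4% from 5 to 10 kb. The 2 shares then stayed apart up to 100 kb. They were 49.3% and 40.9% from 10 to 20 kb and 45.0% and 36.7% from 20 to 50 kb. From 50 to 100 kb they were 43.8% and 32.8%. Beyond 100 kb the shares were 35.7% and 34.3%, with overlapping intervals.

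**Figure D2:**
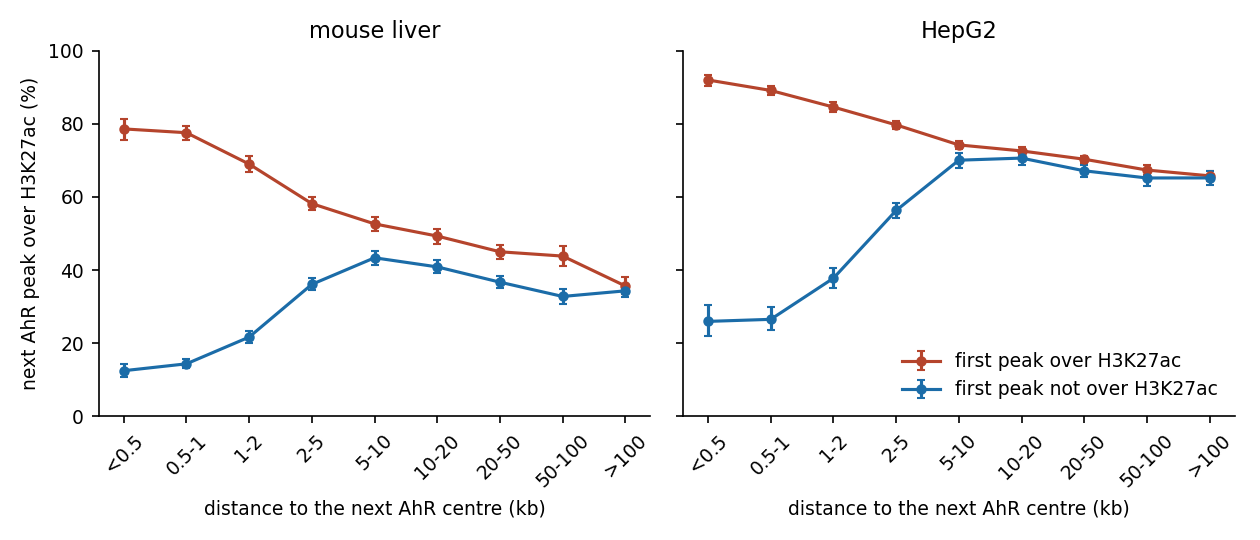
Distance to the next AhR peak centre along the chromosome (x axis, classes in kb) against the share of those next peaks that overlap an H3K27ac region (y axis, %), after a peak that does (red) or does not (blue); bars are 95% Wilson intervals. In mouse liver the 2 curves start at 78.6% and 12.5%, stay apart to 100 kb (43.8% and 32.8% from 50 to 100 kb) and come together beyond it at 35.7% and 34.3%.

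HepG2, a human liver cancer cell line, has its own AhR and H3K27ac lists. Its AhR libraries were 2 from control and 2 from B2-deficient cells, and its H3K27ac libraries 5 from each, all at day 12. Further HepG2 H3K27ac libraries, also at day 12, were 2 control and 2 B2-deficient with DMSO and 2 B2-deficient with an AhR inhibitor. The list named for the inhibitor was not used here. Which libraries entered each HepG2 list is not stated. Of the HepG2 AhR peaks, 70.7% were marked, against 41.5% in mouse, and the HepG2 H3K27ac list had 106666 regions against 69615. The same reading of the next AhR peak in HepG2 also gave a wide contrast at short range. Within 500 bp the next AhR peak was marked in 92.0% of cases after a marked peak and in 26.0% after an unmarked one. From 5 to 10 kb these shares were 74.2% and 70.1%, and from 50 to 100 kb they were 67.4% and 65.2%, so beyond 5 kb the HepG2 shares lay closer together than the mouse ones up to 100 kb. The centre distance in HepG2 had a median of 26.5 bp, and 46.9% of the 40098 marked HepG2 peaks lay wholly inside a region, against 31.3% in mouse. Marked HepG2 AhR peaks were narrower, with a median of 235 bp against 251 bp in mouse. The HepG2 lists both come from 1 cell type, while the mouse lists come from whole liver and from hepatocytes. The part of cell source, marked share, list size and peak width in these differences was not tested.

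Having an AhR neighbour at all differed little between the classes. Another AhR peak of any kind lay within 2 kb of 41.5% of marked and 44.6% of unmarked peaks, and within 10 kb of 75.9% and 71.2%. The order of the 2 classes thus turned between these windows.

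Marked AhR peaks were next joined into clusters wherever neighbouring centres were within 10 kb. This gave 10233 clusters, of which 6791 held a single peak, 3011 held 2 to 4, and 431 held 5 or more. Clusters of 5 or more held 17.1% of the marked peaks, and unmarked peaks joined in the same way gave 17.2%. There were 17282 marked and 24396 unmarked peaks, and joining at a fixed distance depends on the number of peaks. These 2 shares therefore do not show whether the classes cluster alike. The share of marked peaks in clusters of 5 or more was 7.92% when joined within 5 kb, 32.2% within 20 kb and 8.41% with merged peaks only. Merged peaks made up 46.0% of marked peaks that stood alone, 53.2% in clusters of 2 to 4, 57.5% in clusters of 5 to 9 and 55.8% in clusters of 10 or more. Unmarked peaks gave 35.3%, 41.8%, 43.1% and 40.9% for the same classes, so marked peaks were merged more often in every class.

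The 10 clusters with the most marked peaks held 215 of them, beside 47 unmarked AhR peaks. AhR lay in 223 of the 374 H3K27ac regions in these spans (59.6%), against 17450 of 69615 in the whole list. The spans were chosen for their marked peaks, so high shares in them, here and below, follow from the choice. Clusters of 10 or more held 3.73% of marked and 4.90% of unmarked peaks, and the largest cluster of unmarked peaks held 68. The largest cluster of marked peaks had 36 over 45.7 kb of chromosome 19, from 5806056 to 5851772, with 7 unmarked peaks and 58 regions. The median spacing of its marked peaks was 840 bp. It contained the widest marked peak of the list, 1097 bp from 5823946 to 5825042, which had a merge number of 4 and overlapped 2 regions.

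Among these 10, the cluster with the closest packing lay on chromosome 4 at 150858617 to 150873804. There 23 marked peaks and 1 unmarked peak fell within 15.2 kb, with a median spacing of 642 bp, and 20 of 21 regions held AhR. A second cluster of chromosome 4, at 45443753 to 45523287, was as rich in peaks but looser, with 25 marked peaks over 79.5 kb and AhR in 27 of 60 regions. On chromosome 14, at 25462975 to 25527683, all 22 AhR peaks in the span were marked, and 15 of them were merged. High counts of marked peaks thus came both from tight groups and from long stretches.

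Chromosome 2 had 2 of the 10 clusters, each with 19 marked peaks. The first, at 164421376 to 164440341, spanned 18966 bp with 14 merged peaks and had AhR in 20 of 24 regions. The second, at 167823081 to 167867104, spanned 44024 bp with 12 merged peaks. Chromosome 5 also had 2, with 19 marked peaks at 66040898 to 66089887 and 17 at 113098618 to 113155377. The remaining clusters had 18 marked peaks on chromosome 3 at 83000646 to 83045956 and 17 on chromosome 9 at 103206029 to 103248928. Unmarked AhR peaks were most frequent in the chromosome 3 span and in the second chromosome 5 span, with 13 each.

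**Figure D3:**
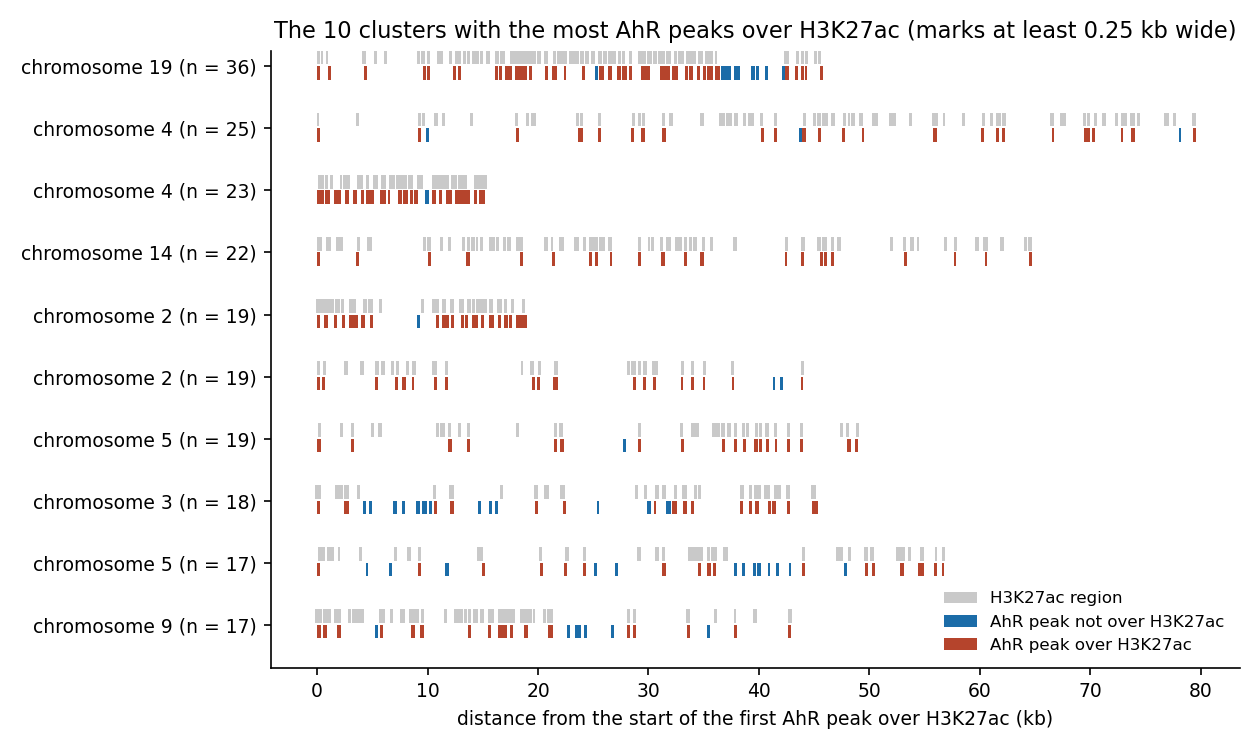
The 10 clusters with the most marked AhR peaks, drawn to scale in kb from the first marked peak (x axis), one row per cluster with its chromosome and number of marked peaks. Grey marks are H3K27ac regions, red marks are marked AhR peaks and blue marks are unmarked AhR peaks; the chromosome 4 cluster with 23 marked peaks is the tightest of the 10, at 15.2 kb.

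Single regions seldom held several AhR peaks. Of the 17450 regions with AhR, 196 held 2 or more (1.12%) and 2 held 3. The share with 2 or more was 0.484% when 50% of the shorter interval had to be shared and 0.433% with merged AhR peaks only. The first of these 2 was a region of 322 bp on chromosome 19 at 43511980 to 43512301, where 3 single AhR peaks lay side by side, at 43511716 to 43512006, 43512045 to 43512248 and 43512298 to 43512554. The other was a region of 1206 bp with a merge number of 4 on chromosome 4 at 150872792 to 150873997, at the end of the chromosome 4 cluster with 23 marked peaks. Regions with 2 AhR peaks included 37878060 to 37878331, 55173868 to 55174340 and 131940871 to 131941271 on chromosome 1. Regions with several AhR peaks were wide, with a median of 502 bp, and 27.6% of them had a merge number of 3 or more, against 2.31% of all regions with AhR. AhR peaks in the list did not overlap each other, so choosing regions that reach several of them favours wide regions. The part of width in these values was not tested. In the other direction, 364 AhR peaks spanned 2 regions and 1 spanned 3. That peak, on chromosome 12 at 108856737 to 108857446, was 710 bp wide with a merge number of 3.

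The share of AhR peaks that were marked also varied between chromosomes. On chromosome X it was 28.3% (157 of 554, 95% Wilson interval 24.7 to 32.2), below all 19 autosomes, whose median was 42.4%. The X chromosome had 1.59 H3K27ac regions per AhR peak, within the autosomal range of 1.39 to 2.02. Both counts were low on X, with 880 regions against 2350 to 5006 on the autosomes and 554 AhR peaks against 1317 to 3216. What made the marked share low on X was not tested. On X, 1 cluster of 5 or more marked peaks held 3.82% of the 157 marked peaks there, against 17.1% in the whole list. X also had the fewest marked peaks of all chromosomes. On chromosomes 8 and 19 such clusters held 26.0% and 25.7% of the marked peaks, and on chromosome 13, which had the highest marked share (47.6%), they held 9.90%.

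**Figure D4:**
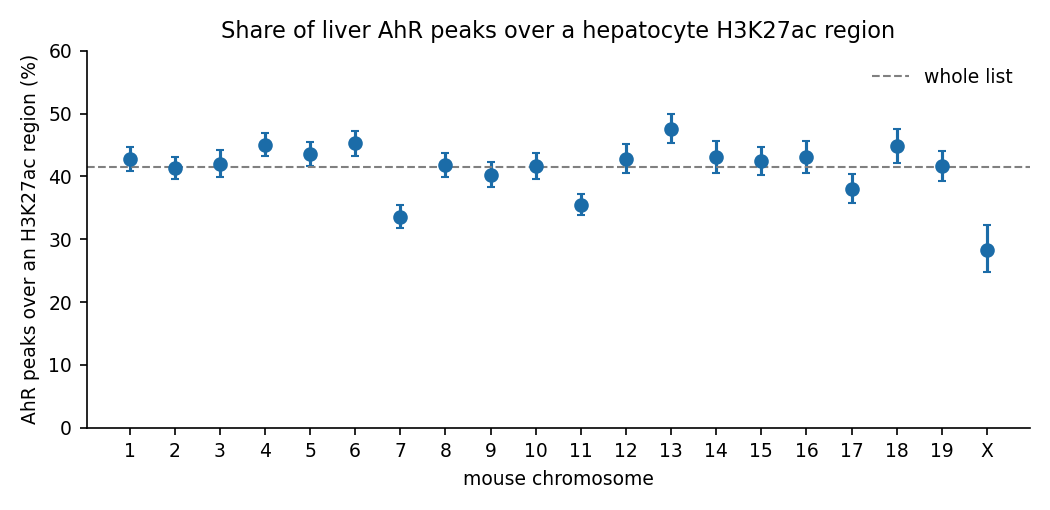
Share of liver AhR peaks that overlap a hepatocyte H3K27ac region (y axis, %) on each mouse chromosome (x axis), with 95% Wilson intervals; the dashed line is the whole list at 41.5%. Chromosome X, at 28.3%, is lowest and chromosome 13, at 47.6%, is highest.

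The H3K27ac list itself sets a limit on what an unmarked AhR peak means. Counted by the gap to the nearest region, unmarked AhR peaks became fewer at first, from 1029 in the first 250 bp to 389 from 2000 to 2250 bp. The count then rose to 412 and 466 in the next 2 bins and to 696 from 2750 to 3000 bp, before it fell again. The merged share was 34.1% at gaps under 500 bp, 40.1% from 2000 to 2750 bp, 46.0% from 2750 to 3500 bp, 42.4% from 3500 to 10000 bp and 37.3% beyond, against 51.1% of marked peaks. In HepG2, where RefSeq gene starts could be placed, 2.23% of H3K27ac regions lay within 1 kb of a start, and the regions per 500 bp rose from 646 to 2001 on passing 3000 bp from a start. There 17.7% of unmarked AhR peaks lay within 1 kb of a start, against 1.56% of marked ones. This share was 2.09% of unmarked HepG2 peaks with a region less than 250 bp away and 32.3% of those with one 2750 to 3000 bp away. Gene starts were not placed in mouse, and what made the step in the mouse list was not tested. Unmarked means only that an AhR peak overlaps no entry of this H3K27ac list, and whether such sites lacked acetylation was not tested.

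**Figure D5:**
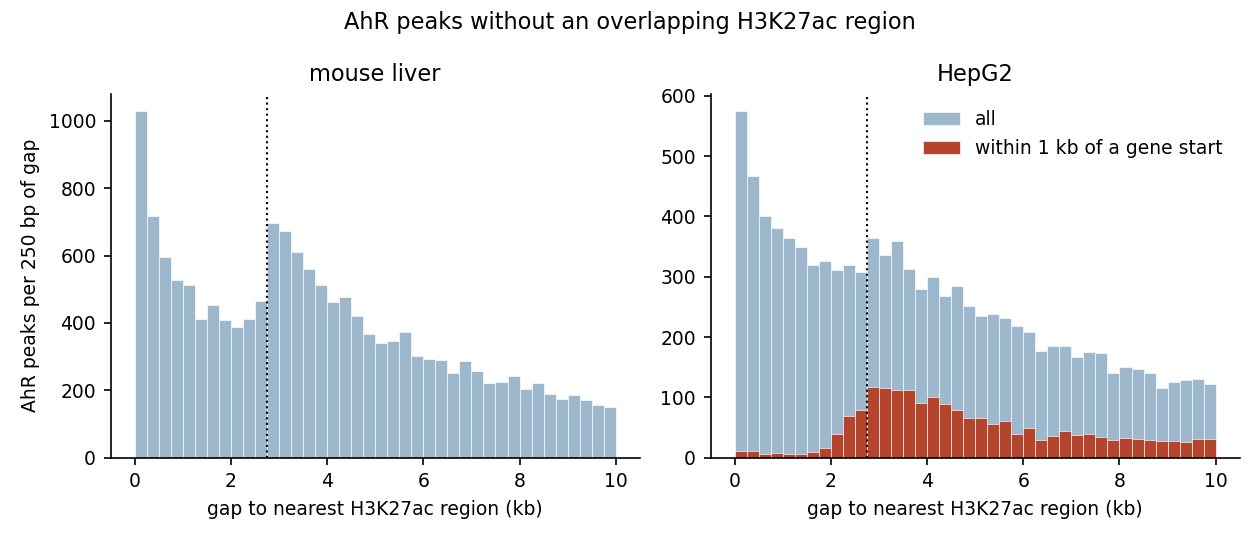
Gap in kb from each unmarked AhR peak to the nearest H3K27ac region (x axis, 250 bp bins) against the number of peaks (y axis), in mouse liver (left) and HepG2 (right), with HepG2 peaks within 1 kb of a RefSeq gene start in red. The dotted line lies between the mouse bins of 466 and 696 peaks; the lowest bin before it has 389.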

How the data were processed

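The authors deposited lists of peak positions without a header, each entry being a named interval on a chromosome. Strand was + throughout, and no list holds a value for a library. Per the submitters' processing notes, the tools were Bowtie2 and HOMER (no version stated) and the builds hg38 and mm10. The sources used here give no caller settings, filters or pooled libraries. The merge number was read from the end of the peak name. The position in the name lay within 0.5 bp of the midpoint for AhR peaks with a merge number of 1 and up to 172 bp from it for merged ones.

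Of the 6 lists, 4 were used. End positions were counted as part of a peak. Since the lists hold positions alone, nothing was tested, and results are counts and shares with 95% Wilson intervals over peaks. These cover counting error only and are too narrow, because neighbouring peaks are not independent. Clusters joined peak centres within 10 kb. Clusters and regions described by position were those with the most AhR peaks, with ties broken by chromosome and start. The planned gene lists, cell type markers and motifs were left out, as they need a mouse gene table or genome. HepG2 gene starts came from the RefSeq promoter table of GRCh38.p14 (35116 starts). The members and measures were chosen with earlier results of these data known. The interval routines were tested on simulated data against direct counting. Intervals were computed with SciPy 1.17.1, tables with pandas 2.3.3 and NumPy 2.4.6 under Python 3.11.15, and plots with Matplotlib 3.10.9.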

Additional observations from a re-analysis of the deposited data

How the results depend on the processing

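The share of AhR peaks over an H3K27ac region was 41.5% as reported, 39.8% with 50% of the shorter region shared, 43.6% with centres within 500 bp and 42.9% with a merge number of 2 or more in both lists. The share of marked peaks that were merged was 50.2% with centres within 500 bp and 52.2% with merged H3K27ac regions only. Regions with 2 or more AhR peaks were 0.484% with 50% of the shorter region shared and 0.433% with merged AhR peaks only, from 1.12%. The median centre distance was 34.5 bp under either the 50% rule or the merged lists. A further region lay within 1 kb of 49.0% and within 5 kb of 77.7% of marked peaks. Clusters of 5 or more held 7.92% of marked peaks when joined within 5 kb, 32.2% within 20 kb and 8.41% with merged peaks only, from 17.1%. A smaller window or joining distance can only lower its share and a larger one only raise it, and for the other moves the cause was not tested. Leaving out the end position of each peak, or the sex chromosomes and unplaced sequences, both chosen after seeing the data, moved no share beyond its counting interval in 12 comparisons. The alternatives for gene lists and motifs were not run, and libraries could not be left out. No paired analysis was possible because the lists hold no value for a library.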

Other observations

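The marked share also varied along chromosomes. Over the 231 windows of 10 Mb with at least 50 AhR peaks, the middle 50% of windows ran from 36.7% to 48.0%. The 95% Wilson interval lay wholly above the whole-list share of 41.5% in 49 windows and wholly below it in 39, and these intervals are too narrow. The lowest share was on chromosome 7 from 0 to 10 Mb, where 10 of 73 AhR peaks were marked (13.7%, 95% Wilson interval 7.61 to 23.4) in the presence of 71 H3K27ac regions. The highest was on chromosome 16 from 70 to 80 Mb, with 43 of 71 (60.6%, 95% Wilson interval 48.9 to 71.1) and 178 regions. These windows were singled out after their values were seen.

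The 5 marked AhR peaks with a merge number of 4 were also read singly, after their values were seen. In addition to the one in the largest cluster on chromosome 19, they lay on chromosome 1 at 74069928 to 74070525, on chromosome 10 at 127662013 to 127662668, on chromosome 3 at 146600503 to 146601505 and on chromosome 4 at 150871690 to 150872418, the last inside the cluster with 23 marked peaks. The 4 outside chromosome 19 overlapped 1 region each.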
